A study of Mus musculus with 10 samples.

Results

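The collagen genes described here are the protein-coding mouse genes whose symbol has the form Col, number, a, number, without the 8 cartilage collagens Col2a1, Col9a1, Col9a2, Col9a3, Col10a1, Col11a1, Col11a2 and Col27a1. They were found by symbol and numbered 36 of the 56750 features (21630 of them protein-coding) of the count table. The symbol rule used no measured values, but the members were chosen with earlier results of these data known. RNA of sarcomas of 2 mouse models was measured by bulk RNA-seq after depletion of ribosomal RNA. The dFLEx tumors (170019, 170024 and 170025) came from mice of genotype dFLEx CDS +/-, in which a human CIC::DUX4 fusion with an HA tag, under a CAG promoter in a Rosa26 construct, is put in frame only after both Cre and FLP have acted, and whose tumors were induced at an age of 6 to 12 weeks by electroporating Cre and FLPE plasmids into the calf muscle. The KP tumors (3800 and 3802) came from KRASloxP-STOP-loxP-G12D; p53fl/fl mice, and no engineered allele shared by the groups is named in the sources used here. How the KP tumors were induced, and the age of either group of mice when tumors were taken, are not given in the sources used here. No drug treatment is stated for these tumors.

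Collagens are the main structural proteins of the extracellular matrix, and each molecule is a helix wound from 3 chains, which may come from the same or from different genes. Fibrillar collagens form the fibres of bone, skin, tendon and tumor stroma, type IV forms the sheet under epithelia and around vessels and muscle fibres, and other types coat fibres, anchor epithelia, line vessels or stay in the cell membrane. In sarcomas, collagen can be made by the tumor cells and by fibroblasts, pericytes and endothelial cells among them, and in bulk samples more cells of a type cannot be told apart from more RNA per cell.

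Duplicate libraries of a tumor were summed, so that the comparison was of 3 dFLEx with 2 KP tumors, and 3802 rests on 1 library. Library totals ran from 20503474 to 46302223 counts. The CIC::DUX4 construct stood at 89.3, 192 and 409 CPM (counts divided by the library total and rescaled) in 170019, 170024 and 170025, had 0 counts in 3800 and 6 counts in 3802. Library 3802 stood apart in the largest number of features with a count (36904), in the lowest share of counts on protein-coding genes (92.5%, against 95.6% to 98.1% in the others) and in the highest level over 1397 olfactory and vomeronasal receptor genes (0.106 CPM per kb, against 0.00269 to 0.0239). At that level, 6 of the 36 collagens (Col4a4, Col4a6, Col6a6, Col20a1, Col24a1 and Col28a1) were at less than 2 times this background in 3802. In 170019 there were 2 (Col6a5 and Col6a6), and in the other tumors 0. Skeletal muscle fibre markers summed to 7683 to 30467 CPM in the dFLEx tumors and 1186 to 3782 CPM in the KP tumors, so muscle RNA was present in all 5, and its part in the results below was not tested.

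Across the 36 collagens, Col26a1 alone passed the test between models, and it rose in the dFLEx tumors. A second set, with Col13a1, Col8a2, Col12a1, Col24a1 and Col1a1, lay higher in every dFLEx tumor than in either KP tumor without reaching the threshold, and Col6a5, Col17a1, Col7a1 and Col6a4 lay lower. Among the abundant collagens, Col3a1, Col1a2 and most chains of types IV, V and VI overlapped between models, with 170025 high among the dFLEx tumors and 3800 the higher KP tumor.

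All 36 collagens were tested in the edgeR quasi-likelihood fit over 24743 genes, with Benjamini-Hochberg adjustment over all of them. Col26a1 was the 1 member called, where the background was 0.182% of all genes in either direction, 0.101% higher and 0.0808% lower in dFLEx. At an unadjusted p under 0.05, 6 members were higher (background 5.65%) and 5 lower (background 4.93%). DESeq2 on the same tumor sums called 1516 of the 24743 genes at an adjusted p under 0.05, against 45 by edgeR. Among the 1516 were 8 members, with Col26a1, Col13a1, Col8a2, Col12a1 and Col24a1 higher and Col6a5, Col17a1 and Col18a1 lower. For 9 members all 3 dFLEx tumors exceeded both KP tumors (background 13.8%), for 4 all 3 were below them (background 11.6%), and for the other 23 the groups overlapped. Overlap was read on TMM-scaled levels only. The TMM factors ran from 0.848 (170019) to 1.21 (3802), and the smallest gap of the 9 was 1.04 times (Col6a2), so the narrow gaps depend on the scaling. The log2 fold change (dFLEx against KP) was above 0 for 24 of the 36, where 43.7% of all genes had such a value. Its median was 0.72 over the collagens and -0.18 over all genes tested. Without 170025, 17 members were above 0, and the medians were -0.14 and -0.26. Without 3802 the order turned, with 0.27 over the collagens and 0.34 over all genes.

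**Figure D1:**
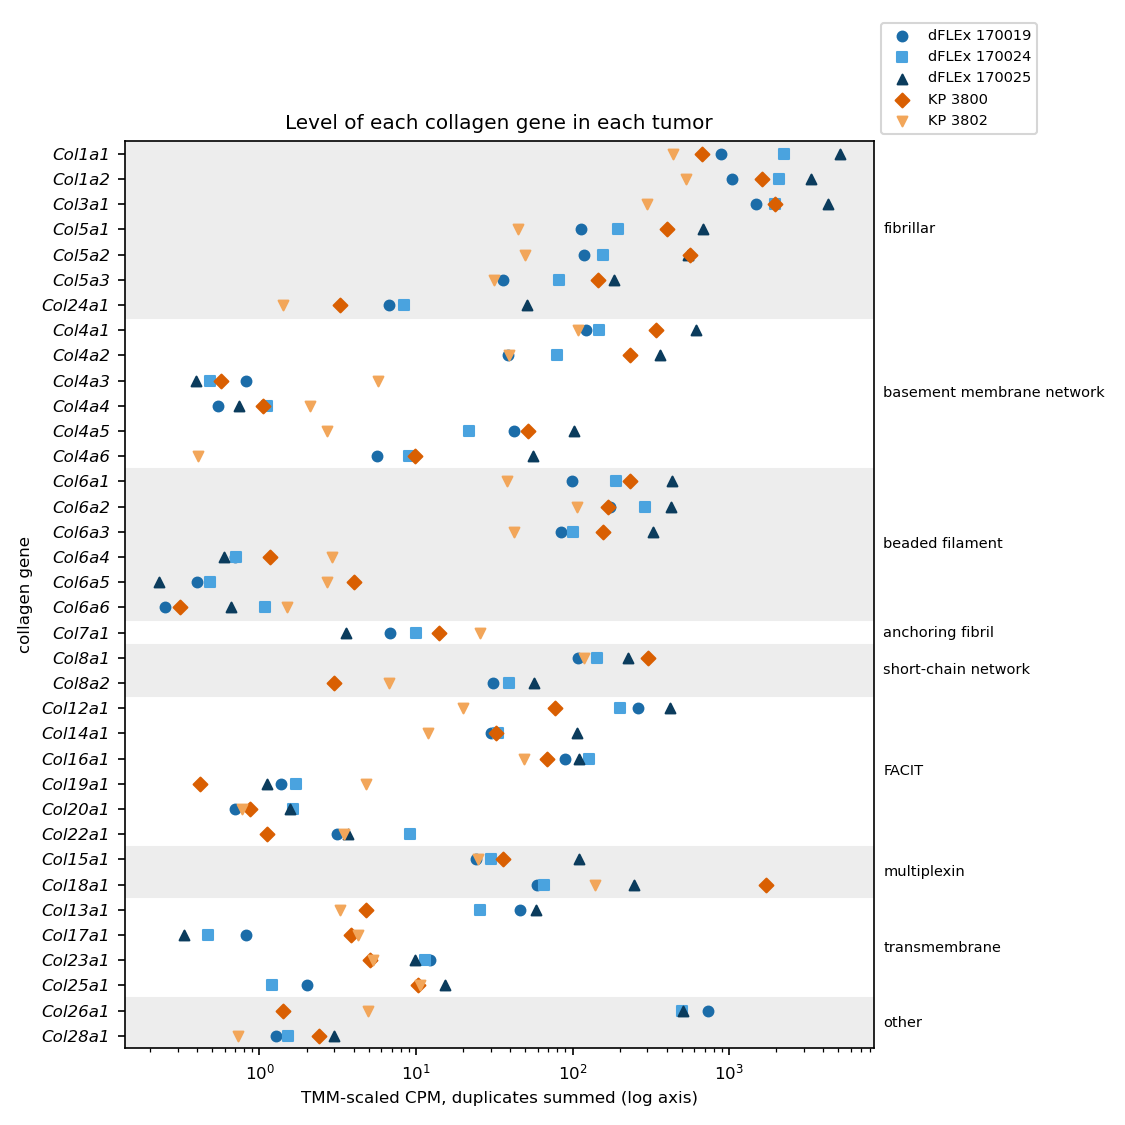
Level of each of the 36 collagen genes in each tumor, as TMM-scaled CPM on a log axis (horizontal), grouped by structural class (vertical); each point is 1 tumor with its libraries summed. The 3 dFLEx points of Col26a1 lie between 500.2 and 734 CPM and the 2 KP points at 1.42 and 4.93 CPM, while most abundant collagens spread within each model.

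Col26a1 (ENSMUSG00000004415, chr5:136770613-136912063, minus strand, GRCm39) encodes collagen XXVI, a secreted collagen with an EMI domain first described in testis and ovary. It stood at 734, 500.2 and 511 CPM (TMM-scaled, the scale of all levels of single genes below) in 170019, 170024 and 170025, and at 1.42 and 4.93 CPM in 3800 and 3802. The groups were far apart, with the lowest dFLEx tumor 101 times the higher KP tumor, and the dFLEx tumors differed from each other by at most 1.47 times. The log2 fold change was 7.52 (SE 0.94, edgeR adjusted p = 0.0475), and the ratio of group means was 183. Col26a1 took 12.9%, 5.68% and 2.78% of all collagen counts in the dFLEx tumors and 0.0161% and 0.226% in the KP tumors. Per kilobase of exon its rank among the 36 collagens was 3 in 170019, 4 in 170024 and 7 in 170025, and 29 and 25 in 3800 and 3802. The tumor highest in Col26a1, 170019, was the dFLEx tumor lowest in Col1a1, Col1a2 and Col3a1 and in the construct. In 3802 the level was 5.68 times the receptor gene background. The call is narrow at this number of tumors: over the alternatives tried the log2 fold change kept its sign in 18 of 18, while edgeR's adjusted p was 0.0534 with library totals in place of TMM and 0.0849 with upper quartile scaling, and the largest over all alternatives was 0.183.

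The 300 bases upstream of the annotated start of Col26a1 are shown beside those of Col13a1, the collagen with the next smallest p, and of Col1a1. Per kilobase, Col1a1 led in 170024, 170025 and the KP tumor 3802, came after Col3a1 in 170019, and had rank 4 in 3800. Col26a1, Col13a1 and Col1a1 are shown since they lay higher in every dFLEx tumor and could be read for shared letters. The windows were read from GRCm39 at the canonical transcript starts of GENCODE M39, all on the strand of the gene, as chr5:136912064-136912363 (minus) for Col26a1, chr10:61814941-61815240 (minus) for Col13a1 and chr11:94826750-94827049 (plus) for Col1a1. Capitals mark any match, on either strand, to the CIC octamers TGAATGAA and TGAATGGA, to CCAAT and to TATAAA, which do not overlap one another here.
Col26a1: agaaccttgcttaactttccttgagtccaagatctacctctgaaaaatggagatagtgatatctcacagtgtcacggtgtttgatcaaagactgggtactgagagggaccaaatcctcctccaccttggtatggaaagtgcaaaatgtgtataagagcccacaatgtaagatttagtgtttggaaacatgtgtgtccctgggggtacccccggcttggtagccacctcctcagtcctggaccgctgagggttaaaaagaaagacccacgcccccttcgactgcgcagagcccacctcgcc
Col13a1: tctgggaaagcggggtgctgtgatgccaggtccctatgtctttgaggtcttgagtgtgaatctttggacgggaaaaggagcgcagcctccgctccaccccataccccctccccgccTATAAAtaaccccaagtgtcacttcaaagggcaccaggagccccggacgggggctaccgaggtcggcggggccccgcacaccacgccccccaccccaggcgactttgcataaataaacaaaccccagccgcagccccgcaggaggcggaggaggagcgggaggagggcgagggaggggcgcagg
Col1a1: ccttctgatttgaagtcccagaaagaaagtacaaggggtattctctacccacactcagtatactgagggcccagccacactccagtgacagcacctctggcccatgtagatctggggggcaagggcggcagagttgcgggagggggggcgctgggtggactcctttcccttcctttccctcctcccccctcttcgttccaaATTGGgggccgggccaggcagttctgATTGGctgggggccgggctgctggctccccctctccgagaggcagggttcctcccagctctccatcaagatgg
The Col26a1 window held none of the 4 motifs. The Col13a1 window held TATAAA with its first base 184 bases before the start. The Col1a1 window held ATTGG, which is CCAAT on the other strand, at 99 and 73 bases before the start. Among the 36 collagen windows 2 (5.56%) held a CIC octamer, those of Col6a6 and Col19a1, and 2.55% of 21630 protein-coding windows did. CCAAT stood in 15 collagen windows (41.7%, against 40.5% of all) and TATAAA in 5 (13.9%, against 14.2%). A match is a description of letters, and the absence of a match covers only these letters in this window.

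Of the 7 fibrillar collagens, which form the load-bearing fibres, none passed the test, and Col1a1 and Col24a1 were the 2 that did not overlap between the models. The median log2 fold change of the 7 was 1.01, with 6 above 0. Over all genes, 43.7% were above 0 and 13.8% lay above both KP tumors. Col1a1, the main chain of type I collagen of bone, skin and tendon, was at 893, 2251 and 5103 CPM in the dFLEx tumors and at 676 and 440.2 CPM in the KP tumors. The dFLEx tumors differed from each other by 5.72 times, and the lowest exceeded the higher KP tumor by only 1.32 times. The log2 fold change was 2.30 (SE 0.82, edgeR unadjusted p = 0.0233, adjusted p = 0.357).

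Col1a2, the partner chain of type I, stood at 1050.5, 2097 and 3359 CPM in the dFLEx tumors and at 1617 and 530.1 CPM in the KP tumors. Col3a1, the chain of the thin fibres of vessels and loose tissue, stood at 1477, 1970.3 and 4256 CPM against 1951 and 301 CPM. For both genes 3800 lay within the dFLEx range, and the log2 fold changes were 1.01 (SE 0.73) for Col1a2 and 1.19 (SE 0.87) for Col3a1.

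Col24a1, a minor fibrillar collagen known from bone, was low but separated, at 6.69, 8.42 and 51.0 CPM in the dFLEx tumors and 3.29 and 1.42 CPM in the KP tumors. Its log2 fold change was 3.22 (SE 1.13, edgeR adjusted p = 0.343), and 1.67 without 170025, the tumor at 51.0 CPM. Type V collagens are built into type I fibres and limit their width. Col5a1 was at 114, 195 and 680.0 CPM against 402 and 45.1 CPM (log2 fold change 0.56, SE 1.05). Col5a2 was at 119, 157 and 543 CPM against 560.3 and 49.6 CPM (log2 fold change -0.16, SE 1.04). In both, 3800 stood next to 170025 and 3802 below every other tumor. Col5a3 overlapped likewise, with a log2 fold change of 0.19.

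Markers of cells that usually make fibrillar collagen were read beside these values. All 7 fibroblast markers had a log2 fold change above 0, 4 of them without overlap and 0 called (over all genes, 43.7% were above 0 and 13.8% lay above both KP tumors), and they summed to 891 to 1046 CPM in the dFLEx tumors and to 360 (3800) and 838 CPM (3802) in the KP tumors. Their sum was lowest of the dFLEx tumors in 170025, the tumor with the most Col1a1, where Dcn, Lum and Pi16 were lowest. Pdgfra, Dpt, Fbln1 and Mfap5 were instead highest of the dFLEx tumors in 170025. Of 4 osteoblast markers 3 lay above both KP tumors, and Alpl was called (edgeR adjusted p = 0.048). They summed to 80.9 to 423 CPM against 0.671 to 2.02 CPM, and 170025 was again the lowest dFLEx tumor. The 4th, Bglap, overlapped, at 0.0497, 2.04 and 0.0252 CPM against 0 and 0.324 CPM. Tendon markers (3) overlapped, at 23.5 to 120 CPM against 94.8 to 108 CPM. The part of these cells in the collagen values was not tested.

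**Figure D2:**
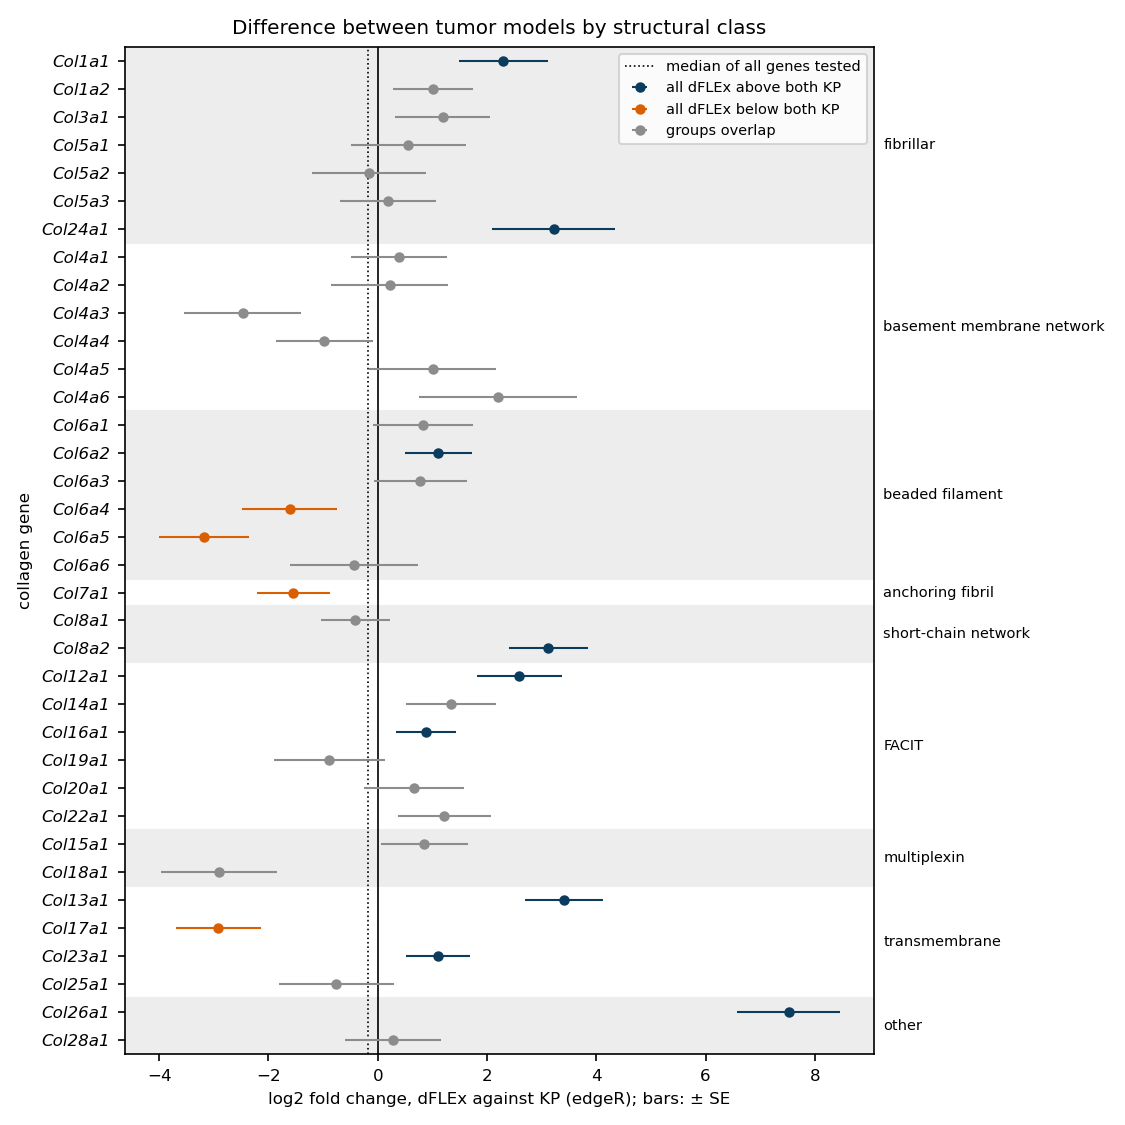
Log2 fold change of each collagen gene (horizontal axis, dFLEx against KP, edgeR, bars ± SE) by structural class (vertical axis), from 3 dFLEx and 2 KP tumors; dark blue marks members whose dFLEx tumors all lie above both KP tumors, orange those all below, grey those that overlap, and the dotted line the median of all genes tested. Col26a1, at 7.52, is the only point with an adjusted p under 0.05.

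FACIT collagens do not form fibres but sit on the surface of other fibres. None of the 6 passed the test, 5 had a log2 fold change above 0, and Col12a1 and Col16a1 did not overlap. The shares over all genes were 43.7% above 0 and 13.8% above both KP tumors. Col12a1, which coats type I fibres in tendon and muscle, was at 261, 199.9 and 419.5 CPM in the dFLEx tumors and 77.1 and 19.9 CPM in the KP tumors. The lowest dFLEx tumor was 2.59 times the higher KP tumor, and the log2 fold change was 2.59 (SE 0.79, edgeR adjusted p = 0.259). Col16a1 lay closer, at 89.5, 128 and 109.8 CPM against 68.9 and 49.3 CPM (log2 fold change 0.88, SE 0.55). Col14a1 overlapped (log2 fold change 1.34), and the 3 rare members Col19a1, Col20a1 and Col22a1 stayed under 10 CPM in every tumor with log2 fold changes of -0.88, 0.67 and 1.22.

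The short-chain collagens form the hexagonal lattice of the membrane under the corneal endothelium and are also made by vessel walls. Col8a2 lay higher in every dFLEx tumor, at 31.0, 39.3 and 57.1 CPM against 2.98 and 6.75 CPM, with a log2 fold change of 3.12 (SE 0.73, edgeR adjusted p = 0.152). Its partner Col8a1 did not, at 108, 144 and 227 CPM against 305 and 118 CPM (log2 fold change -0.41, SE 0.63). The ratio of these partners in each tumor is given with the other pairs below.

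Of the 4 membrane-spanning collagens, which have a single pass through the cell membrane and are shed in part, Col13a1 and Col23a1 lay above both KP tumors and Col17a1 below. Of all genes, 13.8% lay above both and 11.6% below. Col13a1, found at the junctions of muscle with nerve and tendon, was at 46.1, 25.5 and 58.2 CPM in the dFLEx tumors and 4.79 and 3.28 CPM in the KP tumors. The lowest dFLEx tumor was 5.32 times the higher KP tumor, and the log2 fold change was 3.42 (SE 0.71, edgeR unadjusted p = 0.00144, adjusted p = 0.121), the smallest p after that of Col26a1. Leaving out any 1 tumor kept its log2 fold change between 3.14 and 3.88. Col23a1 differed less, at 9.81 to 12.2 CPM against 5.06 to 5.34 CPM. Col25a1, which takes part in the innervation of muscle, overlapped, with 15.4 CPM in 170025 and 1.20 to 2.01 CPM in the other dFLEx tumors, against 10.3 to 10.6 CPM.

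Col17a1 and Col7a1 tie epithelial cells to the tissue beneath, as part of the hemidesmosome and of the anchoring fibril. Col17a1 was at 0.820, 0.468 and 0.327 CPM in the dFLEx tumors and 3.83 and 4.29 CPM in the KP tumors (log2 fold change -2.92, SE 0.78, edgeR adjusted p = 0.205). Col7a1 was at 6.81, 10.0 and 3.58 CPM against 13.9 and 25.6 CPM (log2 fold change -1.54, SE 0.67, edgeR adjusted p = 0.472). All dFLEx tumors were below both KP tumors for either gene, at levels that are low beside those of the fibrillar collagens. The 4 epithelial markers were likewise lower in median (log2 fold change -1.54, 2 of 4 below both KP tumors, against 11.6% of all genes, 0 called), with sums of 1.05 to 8.43 CPM against 16.4 to 19.9 CPM; their part was not tested.

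Type VI collagen forms beaded filaments around muscle fibres and many other cells. The 3 classical chains had log2 fold changes above 0 and wide spreads. Col6a1 was at 99.7, 189 and 431 CPM against 232 and 37.9 CPM (log2 fold change 0.83, SE 0.92). Col6a2 was at 174, 289 and 425.5 CPM against 167 and 107 CPM (log2 fold change 1.11, SE 0.62, edgeR adjusted p = 0.650), and its groups were apart by 1.04 times. Col6a3 was at 84.3, 100.4 and 327 CPM against 157 and 42.1 CPM (log2 fold change 0.78, SE 0.85). The 3 further chains, which can take the place of the Col6a3 chain, were rare. Col6a5 was at 0.398, 0.485 and 0.227 CPM against 4.01 and 2.71 CPM (log2 fold change -3.18, SE 0.83, edgeR adjusted p = 0.195). Its KP level in 3802 was 2.71 times the receptor gene background, and in 3800, where that background was low, 68.6 times. Its level in 170019, 170024 and 170025 was 1.77, 3.44 and 8.96 times that background, so the dFLEx side was also near the floor. Col6a4 also lay below both KP tumors (log2 fold change -1.61), and Col6a6 overlapped (-0.43).

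The 6 type IV chains build the basement membrane and overlapped between models without exception. Col4a1 was at 123, 147 and 611 CPM in the dFLEx tumors and 339 and 108 CPM in the KP tumors (log2 fold change 0.39, SE 0.87). Col4a2 was at 38.9, 79.4 and 361 CPM against 234 and 39.6 CPM (log2 fold change 0.22, SE 1.07). For both, 170025 and 3800 were the high tumors of their groups. The log2 fold change of Col4a2 was -0.10 when libraries were taken as independent samples in edgeR. The Alport chains Col4a3 and Col4a4 were under 6 CPM everywhere, Col4a3 with 5.70 CPM in 3802 and at most 0.820 CPM elsewhere, and their log2 fold changes were -2.47 (edgeR unadjusted p = 0.0496) and -0.97. Col4a5 (1.01) and Col4a6 (2.20) were lowest in 3802, at 2.71 and 0.404 CPM, the second below the receptor gene background.

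Type IV genes lie in head-to-head pairs that share a promoter region. At the canonical starts of GENCODE M39, the transcripts of Col4a1 and Col4a2 on chromosome 8 overlapped by 318 bases and those of Col4a3 and Col4a4 on chromosome 1 by 104 bases, while Col4a5 and Col4a6 on chromosome X started 1281 bases apart. Col4a1 and Col4a2 had the same 3 highest tumors in the same order, and Col4a5 and Col4a6 shared the same highest and lowest tumor. Col4a3 and Col4a4 were both highest in 3802 but lowest in 170025 and 170019. Neither pattern was particular to the pairs. Col5a1, Col5a3, Col6a1 and Col6a3 had the order 170025, 3800, 170024 of Col4a1 and Col4a2. They were also lowest in 3802, as Col4a5 and Col4a6 were. Endothelial markers (7 of 7 above 0, 2 without overlap, 0 called) summed to 298 to 536 CPM in the dFLEx tumors and 149 to 188 CPM in the KP tumors, and pericyte markers (5 of 6 above 0, 2 without overlap, 0 called) to 608 to 1119 CPM against 94.3 to 417 CPM. Both were highest in 170025; their part in the type IV values was not tested. Of all genes, 43.7% were above 0 and 13.8% lay above both KP tumors.

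The multiplexins Col15a1 and Col18a1 are basement membrane proteins with sugar chains, and the end piece of collagen XVIII is endostatin, an inhibitor of vessel growth. Col18a1 was at 59.4, 65.9 and 246 CPM in the dFLEx tumors and at 1720.2 and 140.0 CPM in the KP tumors. The groups overlapped, since 170025 exceeded 3802, and the level in 3800 was 12.3 times that in 3802. The log2 fold change of -2.91 (SE 1.06, edgeR adjusted p = 0.370) rested on 3800 and was -0.01 without it. Per kilobase its rank among the collagens was 1 in 3800 but 4 in 3802, and 14, 15 and 11 in 170019, 170024 and 170025. Col15a1 overlapped with a log2 fold change of 0.85. Col28a1, a rare collagen of peripheral nerve, overlapped at 0.728 to 2.98 CPM.

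The collagens together took 0.481%, 0.839% and 1.78% of all counts in 170019, 170024 and 170025 and 0.939% and 0.263% in 3800 and 3802, so the models overlapped (1.03% ± 0.669, SD, n = 3, against 0.601% ± 0.478, SD, n = 2). Within the collagen counts, Col1a1, Col1a2 and Col3a1 made up 60.2%, 71.8% and 69.2% in the dFLEx tumors and 48.0% and 58.2% in the KP tumors. The rest was made up differently: Col18a1 was 0.749% to 1.34% of collagen counts in the dFLEx tumors and 19.5% and 6.41% in 3800 and 3802, and Col26a1 was 2.78% to 12.9% against 0.0161% and 0.226%. For both genes these shares did not overlap, although for Col18a1 the levels themselves did. Type IV chains were 2.94% to 6.16% of collagen counts in the dFLEx tumors and 7.20% and 7.24% in the KP tumors. These shares are counts, which weigh long genes more, and carry no test.

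**Figure D3:**
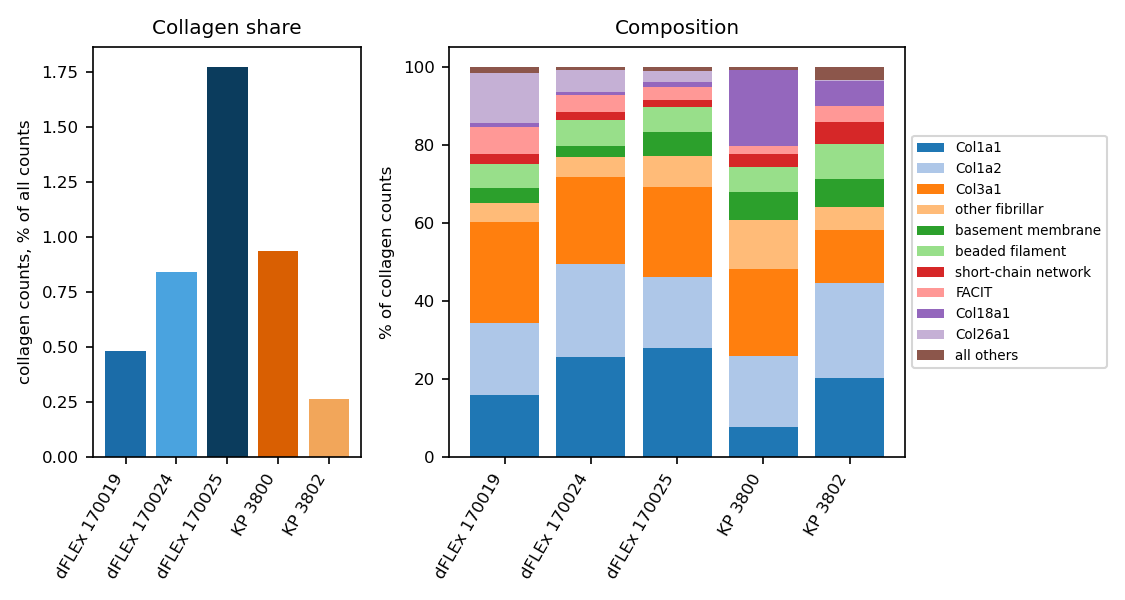
Left, counts of the 36 collagen genes as a percent of all counts in each tumor; right, the make-up of those counts in percent, with the larger genes and classes as stacked parts. The collagen share is highest in 170025 (1.78%) and lowest in 3802 (0.263%), and Col26a1 is visible in the dFLEx tumors and Col18a1 in the KP tumors.

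Much of the spread lay within the models. Tumor 170025 was the highest dFLEx tumor for 23 of the 36 collagens (38.5% of all genes tested), and for 13 of the 14 whose mean reached 100 CPM. The exception was Col26a1. Tumor 3800 exceeded 3802 for 24 of the 36 (46.3% of all genes), and for 13 of the same 14, again with Col26a1 as the exception. Of the 12 members with a mean under 10 CPM, 3802 was instead the higher KP tumor for 9, and that tumor also had the highest receptor gene background. Duplicate libraries of a tumor differed far less than tumors did: over members with at least 100 counts the median difference was 0.05 to 0.22 on the log2 scale, and the largest was 1.61 times, for Col4a6 in 170019.

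Ratios between partner chains were taken per kilobase of exon within each tumor. The exact two-sided permutation test over 3 and 2 tumors can give no p below 0.2, so a ratio that separated the models completely has that value. The largest separation was in type VIII, where Col8a1 over Col8a2 was 1.99, 2.09 and 2.27 in the dFLEx tumors and 58.7 and 10.0 in the KP tumors (exact permutation p = 0.2). The dFLEx tumors were within a narrow range of each other, the KP tumors lay above them and apart from each other, and the ratio of geometric means was 11.4. Col1a1 over Col1a2 was 1.61, 2.03 and 2.88 against 0.792 and 1.57 (exact permutation p = 0.2), with 170019 and 3802 nearly level. With 1 library per tumor this ratio no longer separated the models completely (exact permutation p = 0.4). The height of this ratio depends on the exonic lengths used, 6563 bases for Col1a1 and 12426 for Col1a2. It compares RNA and not protein chains. Col5a1 over Col5a2 was 1.07, 1.39 and 1.40 against 0.803 and 1.02 (exact permutation p = 0.2).

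The pairs of types IV and VI did not separate. Col4a1 over Col4a2 was 2.79, 1.64 and 1.50 against 1.28 and 2.41 (exact permutation p = 0.8), and Col6a1 over Col6a2 was 1.09, 1.24 and 1.92 against 2.63 and 0.672 (exact permutation p = 1). Col18a1 over Col15a1, a pair added after the data were seen, was 2.22, 1.99 and 2.01 against 43.2 and 5.12 (exact permutation p = 0.2). Its dFLEx tumors were again nearly level while the KP tumors lay above them and apart from each other. With these 6 ratios, no p adjusted over them can be below 0.2.

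**Figure D4:**
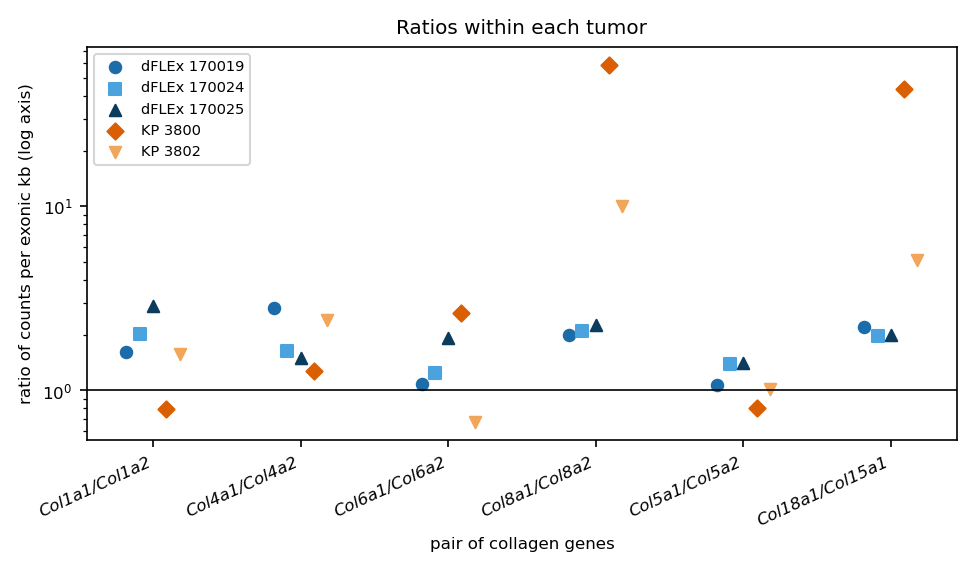
Ratio of counts per exonic kilobase for 6 pairs of collagen genes in each tumor (vertical log axis; a line marks 1); blue points are dFLEx tumors and orange points KP tumors. Col8a1/Col8a2 and Col18a1/Col15a1 are close to 2 in all 3 dFLEx tumors and between 5.12 and 58.7 in the KP tumors.

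Collagen chains are modified, folded and exported in the endoplasmic reticulum, trimmed outside the cell, crosslinked, and bound by receptors, and 54 genes of these steps and of the basement membrane were read from the same fit. None was called by edgeR (9 were higher and 2 lower at an unadjusted p under 0.05, where 5.65% and 4.93% of all genes were). Of the 54, 31 had a log2 fold change above 0 (43.7% of all genes), 18 lay above both KP tumors (13.8%) and 4 below (11.6%). Of 15 genes for proline and lysine modification, 13 were above 0 and 10 lay above both KP tumors (median 0.94). P3h3, a partner of lysyl hydroxylase in the endoplasmic reticulum, was at 82.4, 96.2 and 182 CPM against 15.8 and 14 CPM (log2 fold change 3.01, SE 0.67, edgeR adjusted p = 0.135). Plod2, which hydroxylates lysines in the telopeptides, was at 183, 244 and 415 CPM against 85.1 and 41.1 CPM (log2 fold change 2.15), and P4ha2, a prolyl hydroxylase subunit, at 121, 81.0 and 164 CPM against 55.5 and 17.2 CPM (1.75). All 7 chaperone and export genes were above 0, 3 without overlap (median 0.69). Among them Fkbp14, a foldase of the endoplasmic reticulum, was at 114, 95.4 and 189 CPM against 23.5 and 11.8 CPM (log2 fold change 2.91, SE 0.69, edgeR adjusted p = 0.159), and the collagen chaperone Serpinh1 at 1359, 1151 and 1635 CPM against 627 and 504 CPM (1.29).

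The later steps showed no common direction. For propeptide removal (8 genes, 3 above 0, median -0.37), Adamts14, a protease that trims the amino end of procollagen, was at 5.05, 6.64 and 8.10 CPM in the dFLEx tumors and 246 and 86.2 CPM in the KP tumors (log2 fold change -4.66, SE 0.68, edgeR adjusted p = 0.0626). That is the smallest p of the 54 genes, with groups far apart and a value just outside the threshold. Bmp1, which trims the carboxyl end, was at 267, 285 and 369 CPM against 159.7 and 80.4 CPM (log2 fold change 1.35). Among the 6 crosslinking genes (median -0.01), Loxl1, a lysyl oxidase tied to elastic fibres, did not overlap, at 252, 396 and 713 CPM against 178 and 111 CPM (log2 fold change 1.65).

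Of 10 collagen receptors, 3 lay below both KP tumors and 2 above (11.6% and 13.8% of all genes). Of the 10, 8 had a log2 fold change below 0 (median -1.04). Over all genes the median was -0.18 and 43.7% were above 0. Among the receptors, 2 were above 0. These were the collagen-binding integrins Itga11, at 11.9, 21.5 and 48.4 CPM against 0.900 and 1.82 CPM (log2 fold change 4.33, SE 0.93, edgeR adjusted p = 0.123), and Itga1, at 42.1, 44.5 and 87.9 CPM against 11.7 and 16.4 CPM (2.05). Lair1, an inhibitory collagen receptor of leukocytes, was at 5.47, 6.27 and 5.19 CPM against 21.5 and 24.3 CPM (log2 fold change -2.02), and lay below both KP tumors. Beside it, 5 of 6 macrophage markers were below 0 (4 below both KP tumors, 0 called), with sums of 551 to 751 CPM against 1219 to 3997 CPM, and all 5 T cell markers were below 0 (3 below both, 0 called), with 5.16 to 7.41 CPM against 9.37 to 44.0 CPM, where 11.6% of all genes lay below both; their part was not tested. The 8 basement membrane partners overlapped throughout (median -0.26).

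**Figure D5:**
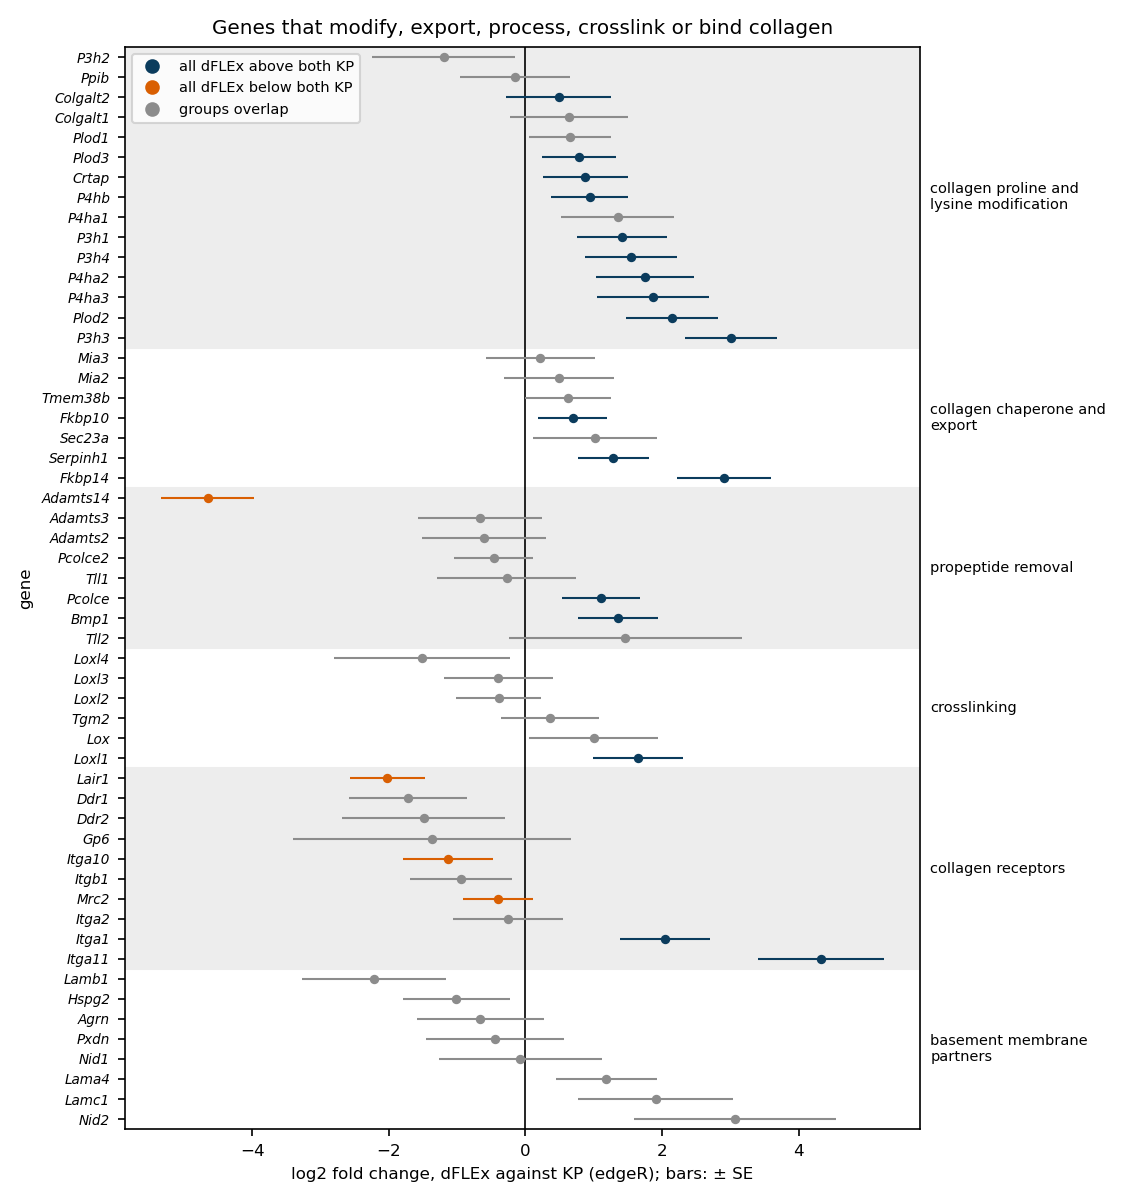
Log2 fold change (horizontal axis, dFLEx against KP, edgeR, bars ± SE; 3 and 2 tumors) of 54 genes that modify, export, process, crosslink or bind collagen, by step (vertical axis); dark blue marks genes whose dFLEx tumors all lie above both KP tumors, orange those all below, grey those that overlap. Of the 15 modification genes 10 are dark blue, while Adamts14, at -4.66, and 8 of 10 receptors lie below 0, with 3 of the receptors orange. Over all genes, 43.7% were above 0, 13.8% lay above both KP tumors and 11.6% below.

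The 8 cartilage collagens left out of the set are given for comparison. All 8 had a log2 fold change above 0 and lay above both KP tumors (43.7% and 13.8% of all genes). Their median was 5.06 against 0.72 over the 36, and 0 were called. Col2a1 was just outside the threshold, with a log2 fold change of 9.38 (edgeR adjusted p = 0.0521). The 8 summed to 643 to 2520 CPM in the dFLEx tumors and to 26.8 and 41.9 CPM in the KP tumors. Of 5 chondrocyte markers (Col2a1 and Col9a1 also among the 8) all were above 0. Acan was called, where 0.101% of all genes were called higher. These markers summed to 516 to 2360 CPM against 1.14 to 5.30 CPM. Their sum was highest in 170025, the tumor also highest in Col1a1, with Col2a1 at 1636 CPM and Col9a1 at 641 CPM there. The other markers peaked elsewhere, Acan and Cnmd in 170024 and Matn1 in 170019. The part of these markers in the levels of the 36 was not tested.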

How the data were processed

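RNA of 5 sarcomas was measured in rRNA-depleted, paired-end libraries made from RNA split into duplicates. Of 10 labelled libraries 9 had a column; duplicate 2 of tumor 3802 is not analysed here. The authors trimmed reads with Trimmomatic (0.39), aligned them with STAR (2.7.10a) to GRCm39 plus the construct, and deposited raw counts per gene from featureCounts (Subread 2.0.3). Per the file headers, each mate was counted, strand was ignored, and reads with several alignments or over several genes were left out. Counting error is thus larger than totals imply. At most 5.65% of any collagen's exonic bases (Col4a3) lay under another feature.

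Symbols were joined from GENCODE M39 (56017 of 56750 identifiers, 98.7%). Counts were summed by tumor, filtered with filterByExpr, TMM-scaled and tested with edgeR (4.0.16, R 4.3.3; glmQLFit, glmQLFTest) over 24743 genes with Benjamini-Hochberg adjustment at 0.05; SE is the absolute log2 fold change over the square root of F. The scripts were tested on simulated data, with large known changes for the edgeR fit, which checks the code and not the power in these tumors. Ratios were tested with exact permutations (SciPy 1.17.1). Duplicates are libraries of 1 RNA, so the tumor was the replicate.

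Values in every tumor are given for collagens of the set, and genes that modify, export, process, crosslink or bind collagen, that met either of these rules. The rules were an adjusted p under 0.05, or an unadjusted p under 0.05 with no overlap. Such values are also given for collagens of the set with a mean of at least 100 CPM or leading their class per length. Cell markers and the cartilage collagens are, where described, mostly given as sums, also where a gene met these rules. The members and lists were chosen with earlier results of these data known. Alternatives were the libraries as independent samples (edgeR, DESeq2 1.42.0), DESeq2 on tumor sums, limma-voom (limma 3.58.1), the duplicate number as a block, other scalings, filters and dispersions, 1 library per tumor, each tumor left out and, added after the data were seen, subtraction of the receptor gene background.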

Additional observations from a re-analysis of the deposited data

How the results depend on the processing

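The count of collagens called was 1 in the reported fit and 0 to 14 otherwise: 11 with libraries as independent samples in edgeR, 14 so in DESeq2, 8 with DESeq2 on tumor sums, 4 with limma-voom, 5 with no filter, and 0 with library totals, upper quartile, a mean of at least 1 CPM or a robust dispersion. The duplicate number as a replicate block gave 7 collagens and 2476 genes; it numbers libraries of 1 RNA and pairs no tumors. The count over all genes, 45 in the reported fit, was 3344 and 5042 with libraries in edgeR and DESeq2, 1516 with DESeq2 on tumor sums, 543 with limma-voom, 880 with no filter, 80 with a mean of at least 1 CPM and 11 with a robust dispersion. Fits on libraries treat duplicates of 1 tumor as replicates. Leaving out a tumor gave 0 to 1 collagens called, 0 to 414 genes (0 without 170019 or 170024, 9 without 170025, 8 without 3800, 414 without 3802), 17 to 26 collagens above 0 and a median of -0.14 to 1.63. Without 3802, Col26a1 was still called (log2 fold change 8.69); without any other tumor it was not (7.04 to 7.59).

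The other 20 named collagens outside the leave-outs gave the reported sign except Col4a2 (-0.10 and -0.13 with libraries in edgeR and DESeq2, -0.11 with the block) and Col5a2 (0.24 with limma-voom); Col26a1 was past the threshold in 9 of 13 such settings. Leaving out a tumor turned the sign in 11 of 105 values, over 6 collagens: Col4a1 (-0.73 to 1.62, with -0.19 without 3802), Col4a2 (-1.21 to 2.19, with -0.54 without 3802), Col5a1 (-0.53 to 3.04, with -0.27 without 3802), Col5a2 (-1.13 to 2.63, with 0.20 without 170019 and 0.14 without 170024), Col6a3 (-0.10 to 2.19) and Col8a1 (-0.92 to 0.60). The log2 difference of Col4a1 over Col4a2 ran from -0.34 to 0.57 (-0.16 without 170019) and of Col6a1 over Col6a2 from -0.94 to 1.03 (-0.20 without 170025), while those of Col1a1 over Col1a2 (0.42 to 1.41), Col5a1 over Col5a2 (0.32 to 0.67), Col8a1 over Col8a2 (-4.79 to -2.24) and Col18a1 over Col15a1 (-4.39 to -1.31) kept their sign. The mean collagen share ran from 0.660% to 1.31% in dFLEx and from 0.263% to 0.939% in KP. TMM moved the median of all genes by 0.28 on the log2 scale against library totals. The causes were not tested. No test over 3 and 2 tumors can separate the model from what else differs between these mice, and 4 of the 12 collagens with a mean under 10 CPM were at less than 2 times the receptor gene background in 3802.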
